A study of Mus musculus with 16 samples.

Results

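Glucocorticoid-responsive genes were followed in mouse kidney, that is the receptor Nr3c1 and the target genes Fkbp5, Tsc22d3, Zbtb16, Sgk1, Klf9, Mt1 and Mt2. The 8 genes were chosen by symbol from the 57186 genes of the count table, and all 8 were among the 25408 genes with at least 100 counts over all libraries. RNA of kidney from 16 male mice was sequenced, 1 library per mouse and 4 per group. Every mouse, control mice included, carried the Elmo1H/H genotype on a C57BL/6J background, which raises the expression of Elmo1. The non-diabetic groups carried Ins2+/+ and were left untreated (ND_C) or given vitamin B12 (ND_B12). The diabetic groups carried Elmo1H/H with Ins2Akita/+, also untreated (D_C) or given B12 (D_B12). Ins2Akita is an insulin 2 mutation that kills beta cells, so the model is one of insulin deficiency. B12 was given in the drinking water at 10 mg/kg per day from 8 weeks of age, and kidneys were taken at 16 weeks of age, between ZT7 and ZT9, the hours after lights on. The labels give 16 weeks of B12 treatment and the methods of the study give 8 weeks. Corticosterone, the ligand of the receptor in mice, was not analysed here.

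Glucocorticoids are adrenal steroids that enter cells and bind the glucocorticoid receptor, which waits in the cytoplasm with heat shock proteins and immunophilins. The bound receptor moves to the nucleus, binds glucocorticoid response elements and raises or lowers the transcription of nearby genes. Blood levels rise and fall each day and surge with stress, and the kidney is one of the tissues in which the receptor is broadly expressed. In the collecting duct the enzyme Hsd11b2 inactivates corticosterone, which leaves the related mineralocorticoid receptor to aldosterone. Metallothioneins answer to zinc and other metals through metal response elements as well as to glucocorticoids.

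The sites below are shown because they are the elements through which these families are known to be switched on. Sequences were read from the GRCm39 genome at the start of each gene's most counted transcript. Metal response elements (TGCACNC and TGCGCNC, on either strand) were counted in the 250 bases before the start. Mt1 held 3 of the first and 2 of the second in that window, Mt2 held 1 of each, and the other 6 genes held none. Of 21770 promoters, 10.5% held TGCACNC and 10.4% held TGCGCNC. These shares and those below were taken at the annotated start of each protein-coding gene. Their windows thus differ in kind from those of the 8 genes, which lie at the most counted transcript. In the 30-base stretches of chromosome 8 that follow, on the + strand, capitals mark the elements, and GGGTGCA is a TGCACNC element on the opposite strand.
Mt1, chr8:94905683-94905712: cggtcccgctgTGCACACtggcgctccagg
Mt1, chr8:94905717-94905746: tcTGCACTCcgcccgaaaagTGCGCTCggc
Mt1, chr8:94905797-94905826: tgctGGGTGCAaacccttTGCGCCCggact
Mt2, chr8:94899012-94899041: agcatcgcctcTGCACCCggcccctcgggc
Mt2, chr8:94899102-94899131: cggatcgcagacccttTGCGCTCagctcct
All 5 stretches and the one of Sgk1 below lie inside or at the edge of the annotated span of their gene, since other transcripts start further upstream. Neither the full palindrome of the glucocorticoid response element (AGAACA, any 3 bases, then TGTTCT) nor its half-site (AGAACA) was found in the 250 bases before the start of any of the 8 genes. The half-site was present in 15.5% of all promoters of that length. Within 5000 bases on either side of the start, the full palindrome was found only at Sgk1, 965 bases upstream of the start of Sgk1-201. Such a palindrome lay in 27 of 21765 windows of that size, or 0.124%. The capitals below mark it on the + strand of chromosome 10.
Sgk1, chr10:21869593-21869622: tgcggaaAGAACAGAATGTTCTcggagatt
A match in these letters is a description and not a measured binding site.

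Totals per library ran from 65271308 to 91771136, and raw counts of the 8 genes ran from 632 for Zbtb16 to 32114 for Klf9. The labels of some libraries are in doubt. With the 8 genes left out, the profile of the library labelled D_C 1 resembled the ND_C libraries most, and the library labelled ND_B12 4 resembled D_C most. The other 14 libraries resembled a group of their own diabetic state. In addition, group means printed with the study fit other sets of libraries than the labelled ones. The means printed for D_C are those of the D_B12 set by the labels, and the means printed for D_B12 are those of D_C 2, 3 and 4 with ND_B12 4. The means printed for ND_C are those of ND_C 1, 2 and 4 with ND_B12 1. Those printed for ND_B12 are of ND_C 3, ND_B12 2 and 3 and D_C 1. Under that assignment D_C 2, 3 and 4 and the D_B12 mice would change places in every comparison, the diabetes comparisons included. ND_C 3 and ND_B12 1 would change treatment too, while D_C 1 would become non-diabetic and ND_B12 4 diabetic. Groups and directions here follow the labels, so each value named by treatment rests on them. Group comparisons are given with all 16 libraries, and some of them again without D_C 1 and ND_B12 4. That takes out the 2 libraries of doubtful diabetic state but does not bear on the exchange of treatments. These 2 were picked by a profile of all genes tested but the 8, so leaving them out favours diabetes differences in those genes. Calls of such genes and shares of all genes without the pair are therefore not a separate check. The adjusted p of the 8 without the pair is taken over those same genes, so it is not a separate check either. Genes that ran closely with the 8, such as Thrb with Nr3c1 (r = 0.92), were part of that profile too. Spreads between mice, correlations and scores are not given without this pair. The date in each library's name runs with the group, and only 2 of the 10 dates hold libraries of more than 1 group, so date and group cannot be told apart in most comparisons. The dates are too thinly filled for values within a date, and a fit with the date as a covariate stands in for them.

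Markers of the labelled tissue were present, with 6 proximal tubule genes summing to between 1013729 and 1321178 normalized counts in every library. Of 10 markers of the adrenal gland, a neighbour of the kidney that makes glucocorticoids, 3 were at 0 in all libraries and the sum of all 10 lay between 311 and 582 normalized counts. The adipocyte markers, none of the 6 at 0 throughout, summed to between 2191 and 20269. In bulk tissue, fewer cells of a type and less RNA per cell cannot be told apart.

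None of the 8 genes passed an adjusted p of 0.05 in any of the 6 comparisons, by edgeR's quasi-likelihood test with Benjamini-Hochberg adjustment over 25408 genes. Averaged over treatments, diabetes called 0 of the 8 genes beside 3.02% of all genes. In untreated kidneys the diabetic state called 0 of the 8 beside 1.66% of all genes (0.937% higher in diabetes), and in B12-treated kidneys 0 of the 8 beside 0.823% (0.26% higher). B12 called 0 of the 8 genes in non-diabetic kidneys, 0 in diabetic kidneys and 0 for the interaction, beside 0% of all genes each time. At an unadjusted p under 0.05, edgeR counted 2 of the 8 for the averaged diabetes effect (19.4% of all genes), 1 in untreated kidneys (18.6%) and 2 in B12-treated kidneys (17%). By the same count there was 1 of the 8 for B12 in non-diabetic kidneys (7.62%), 0 in diabetic kidneys (13.6%) and 1 for the interaction (16.1%). DESeq2 called 1 of the 8 in each of the 3 diabetes comparisons, beside 7.23%, 6.44% and 4.68% of all genes for the averaged, untreated and B12-treated effects. It called 0 of the 8 in the other 3, beside 0.0236% for B12 in non-diabetic kidneys, 2.64% in diabetic kidneys and 3.71% for the interaction. The genes behind these counts are Nr3c1, Mt1 and Zbtb16.

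Without D_C 1 and ND_B12 4, edgeR called 2 of the 8 genes for diabetes averaged over treatments, 1 in untreated and 1 in B12-treated kidneys, and 0 in the other comparisons. Of all 24831 genes in those fits, 10.2%, 8.57% and 2.8% were called for the 3 diabetes comparisons in the same order, then 0% and 0.87% for B12 in non-diabetic and diabetic kidneys and 0.35% for the interaction. The median log2 fold change of the 8 genes for averaged diabetes was 0.20, beside 0.0072 over all genes tested, with 6 of the 8 above 0. For B12 in diabetic kidneys the median of the 8 was 0.014 beside -0.00044 over all genes, with 4 of the 8 above 0.

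**Figure D1:**
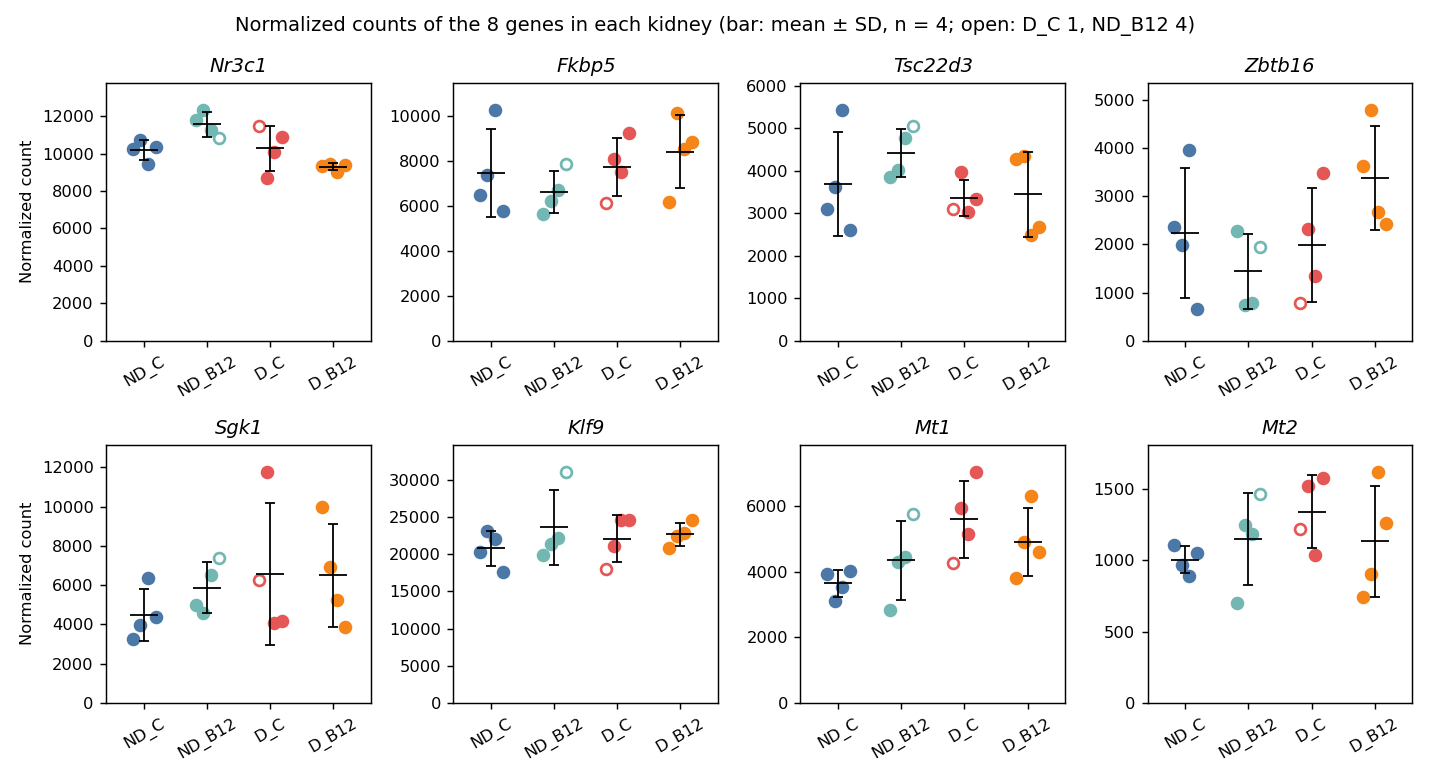
Normalized counts (count divided by the library's size factor, axis from 0) of the 8 genes in each kidney, by labelled group. Points are libraries, bars the mean ± SD of 4, and open points the libraries D_C 1 and ND_B12 4; the D_B12 points of Nr3c1 lie between 9042 and 9454, below all 4 ND_B12 points, and Zbtb16 spans 663 to 4782.

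Nr3c1 encodes the glucocorticoid receptor itself, on chromosome 18 at 39543598 to 39652474 on the minus strand. It stood at 10270, 10729, 9439 and 10357 normalized counts in the ND_C mice and at 11810, 12312, 11257 and 10838 in ND_B12. The D_C mice had 11446, 8687, 10088 and 10871, and the D_B12 mice 9345, 9454, 9042 and 9366. All 4 ND_B12 mice lay above all 4 ND_C mice and above all 4 D_B12 mice, while D_C overlapped ND_C and D_B12.

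Nr3c1 was lowest in D_B12, at 9302 ± 179 (SD, n = 4), against 11554 ± 643 in ND_B12. That difference was a log2 fold change of -0.32 (SE 0.072, 95% interval -0.47 to -0.16), or a fold of 0.803, with an edgeR adjusted p of 0.0525. Groups without overlap, as here, were found for 11.7% of all genes in that comparison, and the exact permutation p was 0.0286, the smallest that 4 against 4 allows. Without D_C 1 and ND_B12 4 the edgeR value was -0.34 with an adjusted p of 0.0193, and DESeq2 on all libraries gave -0.31 with 0.00473. Leaving out 1 library also brought the edgeR adjusted p under 0.05, to 0.0487 without ND_B12 4, 0.0369 without D_C 1 and 0.0281 without D_C 2. Fitting only the 2 groups gave an adjusted p of 0.0393 in edgeR, and the date covariate gave -0.31 with 0.377. The D_B12 libraries also stood apart in their share of mitochondrial counts, 12.4 to 13.1% against 8.35 to 11.9% in the other 12, and in markers of the thick ascending limb. The marker sum was 188935 to 219186 in D_B12, below all ND_C and D_C libraries and overlapping ND_B12 (210783 to 317607). Proximal tubule markers summed to 1073156 to 1113680 in D_B12, below ND_B12 (1247246 to 1321178) and ND_C (1173043 to 1273136). They overlapped D_C (1013729 to 1293382). The part of any of these in the D_B12 values of Nr3c1 was not tested.

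In untreated kidneys the receptor differed by 0.010 (SE 0.072, 95% interval -0.14 to 0.16) between D_C and ND_C. Averaged over treatments, diabetes gave -0.15 (SE 0.051, edgeR adjusted p 0.110), and -0.19 with an adjusted p of 0.0218 without D_C 1 and ND_B12 4. Leaving out D_C 1 alone gave -0.18 with 0.0397. B12 in non-diabetic kidneys gave 0.18 (SE 0.072, edgeR adjusted p 0.610) and B12 in diabetic kidneys -0.14 (SE 0.072, adjusted p 0.408). Groups without overlap occurred in 4.81% of all genes for B12 in non-diabetic kidneys. The difference between these responses, the interaction, was -0.33 (SE 0.10) with an unadjusted p of 0.00572 and an edgeR adjusted p of 0.141. A gene that follows one of these contrasts shares its 4 libraries with the next, so these values are not separate pieces of evidence.

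Fkbp5 encodes an immunophilin that binds the receptor complex, lowers its affinity for hormone and is itself induced by the receptor. It lies on chromosome 17 at 28618058 to 28737521, minus strand. ND_C mice had 6498, 7375, 10246 and 5759 normalized counts, while ND_B12 mice had 5658, 6196, 6714 and 7868. D_C mice had 6118, 8073, 7511 and 9239, and D_B12 mice 6189, 10106, 8524 and 8828. The groups overlapped in every comparison, and the highest mouse of all was the untreated non-diabetic ND_C 3. The widest difference was 0.34 (SE 0.18, 95% interval -0.032 to 0.72) for diabetes in B12-treated kidneys, with an edgeR adjusted p of 0.341. In untreated kidneys it was 0.050 (SE 0.18, 95% interval -0.33 to 0.43).

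Tsc22d3, also called GILZ, encodes a leucine zipper protein through which glucocorticoids dampen inflammatory transcription. The gene is on the X chromosome at 139440091 to 139501408, minus strand. Its counts were 3105, 3621, 5419 and 2616 in ND_C and 3851, 4020, 4757 and 5041 in ND_B12. In D_C they were 3101, 3958, 3033 and 3325, and in D_B12 4268, 4355, 2485 and 2677. ND_C 3 was again the highest mouse, and D_B12 split into a high and a low pair. The averaged diabetes effect was -0.25 (SE 0.15, 95% interval -0.57 to 0.068), with an edgeR adjusted p of 0.387.

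Zbtb16, a zinc finger repressor also called PLZF that glucocorticoids induce strongly in many tissues, was the most variable of the 8. It lies on chromosome 9 at 48563141 to 48748664, minus strand. The ND_C mice had 2356, 1984, 3953 and 663 normalized counts and the ND_B12 mice 2276, 753, 786 and 1938. D_C had 788, 2327, 1347 and 3478, and D_B12 had 3624, 4782, 2662 and 2423. The mice ND_C 4, ND_B12 2, ND_B12 3 and D_C 1 all lay under 800, and the next mouse was at 1347.

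Every D_B12 mouse exceeded every ND_B12 mouse in Zbtb16, with means of 3373 ± 1073 and 1438 ± 785 (SD, n = 4). The fold was 2.34, a log2 fold change of 1.23 (SE 0.51, 95% interval 0.15 to 2.31), with an unadjusted p of 0.0286 and an edgeR adjusted p of 0.232. The exact permutation p was also 0.0286, and 11.7% of all genes had groups without overlap there. Leaving out D_C 1 and ND_B12 4 gave 1.41 with an edgeR adjusted p of 0.171. Here too the part of the higher mitochondrial share and of the lower proximal tubule and thick ascending limb markers of D_B12 was not tested. For diabetes in untreated kidneys the value was -0.17 (SE 0.50) and the sign turned to 0.089 without those libraries. The interaction was 1.40 (SE 0.71, 95% interval -0.11 to 2.91) with an edgeR adjusted p of 0.355.

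Sgk1 encodes a kinase that answers to both glucocorticoids and aldosterone and raises sodium uptake by keeping the epithelial sodium channel at the cell surface. It lies on chromosome 10 at 21758083 to 21875802 on the plus strand. ND_C had 3237, 3963, 6334 and 4381 normalized counts and ND_B12 4977, 4599, 6501 and 7365. D_C had 6278, 11751, 4074 and 4165, and D_B12 had 9961, 6901, 5252 and 3881. A single mouse stood high in each diabetic group, D_C 2 and D_B12 1, and all groups overlapped.

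The untreated diabetic difference in Sgk1 was 0.55 (SE 0.33, 95% interval -0.16 to 1.26), with an edgeR adjusted p of 0.403, and it ranged from 0.11 to 0.77 when 1 library was left out. With the date as a covariate it was 1.38 (SE 0.33, edgeR adjusted p 0.118), and the B12-treated and averaged differences were 1.84 (SE 0.51, adjusted p 0.128) and 1.61 (SE 0.37, adjusted p 0.136). Markers of the collecting duct, where Sgk1 acts on the sodium channel, were also higher in D_C than in ND_C. Their sum over 4 genes was 25281 to 45009 in D_C against 17834 to 22296 in ND_C, with edgeR calling Aqp2 (1.69, adjusted p 0.0436) and Aqp3 (0.60, adjusted p 0.0397). Of all genes, 0.937% were called higher in that comparison. For B12 in diabetic kidneys the median of the 4 markers was -0.53 and Sgk1 stood at -0.012. The values were -0.15 and 0.15 for diabetes in B12-treated kidneys, and 0.23 and 0.39 for B12 in non-diabetic kidneys. The part of these markers in the Sgk1 values was not tested.

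Klf9, a zinc finger factor induced early by glucocorticoids and by thyroid hormone, had the highest counts of the 8. It lies on chromosome 19 at 23118187 to 23148497, plus strand. Untreated mice averaged 20780 ± 2385 (ND_C) and 22112 ± 3153 (D_C), and B12-treated mice 23629 ± 5047 (ND_B12) and 22700 ± 1538 (D_B12) (SD, n = 4). Single mice ranged from 17653 in ND_C 4 to 31054 in ND_B12 4, and that last mouse sets the spread of its group. The averaged diabetes effect was 0.014 (SE 0.093, 95% interval -0.18 to 0.21), with an edgeR adjusted p of 0.956. Its sign turned when any of 7 single libraries was left out.

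Mt1 encodes metallothionein 1, a small cysteine-rich protein that holds zinc and copper and scavenges radicals. It lies on chromosome 8 at 94905710 to 94906955, plus strand. ND_C had 3931, 3101, 3534 and 4028 normalized counts and ND_B12 2848, 4308, 4462 and 5779. D_C had 4278, 5961, 5165 and 7047, and D_B12 3804, 4916, 6311 and 4619. All 4 D_C mice lay above all 4 ND_C mice, while the B12-treated groups overlapped.

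In untreated kidneys Mt1 was at 5613 ± 1178 in D_C and 3648 ± 423 in ND_C (SD, n = 4), a fold of 1.54. The log2 fold change was 0.62 (SE 0.19, 95% interval 0.21 to 1.03), with an unadjusted p of 0.00576 and an edgeR adjusted p of 0.102. The exact permutation p was 0.0286, and 9.44% of all genes had groups without overlap in that comparison. The adjusted p fell to 0.0444 without D_C 1 (0.72), to 0.0224 without D_C 1 and ND_B12 4 (0.73), and to 0.0217 in DESeq2 (0.62), but rose to 0.808 with the date covariate (0.25).

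Averaged over treatments, Mt1 gave 0.40 (SE 0.14) with an edgeR adjusted p of 0.122. Without D_C 1 and ND_B12 4 it was 0.54 with an adjusted p of 0.0151, and without ND_B12 4 alone 0.48 with 0.0438. In those 14 libraries the 7 diabetic kidneys lay between 3804 and 7047 and the 7 non-diabetic between 2848 and 4462. DESeq2 on all 16 gave 0.40 with an adjusted p of 0.0422. With the date covariate in edgeR the value turned to -0.14, with an adjusted p of 0.892. In B12-treated kidneys the diabetes value was 0.17 (SE 0.19, 95% interval -0.24 to 0.58), and the interaction was -0.45 (SE 0.27, edgeR adjusted p 0.456), so a difference between the responses of treated and untreated kidneys was not shown.

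Mt2 encodes metallothionein 2 and lies 5502 bases from Mt1, at 94898819 to 94900207 on chromosome 8, plus strand. Untreated mice averaged 1004 ± 94.8 (ND_C) and 1339 ± 256 (D_C), and B12-treated mice 1149 ± 324 (ND_B12) and 1132 ± 390 (D_B12) (SD, n = 4). Mice ranged from 699 in ND_B12 1 to 1618 in D_B12 3, and all groups overlapped. For diabetes in untreated kidneys the value was 0.42 (SE 0.23, 95% interval -0.074 to 0.90), with an edgeR adjusted p of 0.355. The longest run shared by the most counted transcripts of Mt1 and Mt2 was 20 bases, shorter than the 50-base reads.

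**Figure D2:**
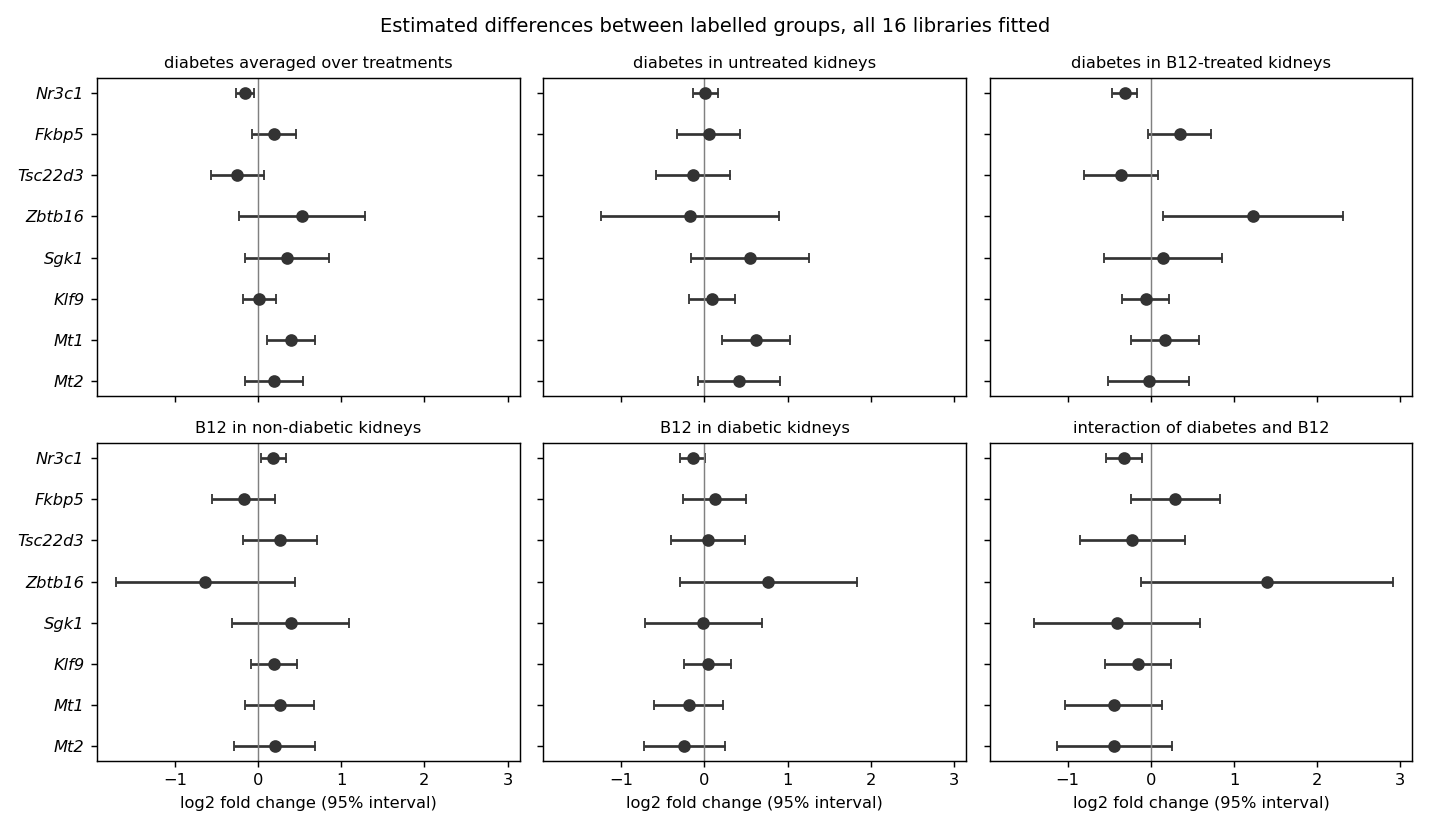
Log2 fold changes of the 8 genes for the 6 comparisons, points with 95% intervals from edgeR with all 16 libraries fitted; the line marks 0. Intervals of Zbtb16 are the widest (0.15 to 2.31 for diabetes in B12-treated kidneys) and those of Nr3c1 the narrowest (-0.47 to -0.16 there).

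B12 in diabetic kidneys left no gene of the 8 with an unadjusted p under 0.05 in edgeR. The estimates ran from -0.24 (SE 0.23) for Mt2 to 0.77 (SE 0.50) for Zbtb16, and the groups D_B12 and D_C overlapped for all 8 genes. Groups without overlap were found for 6.58% of all genes in that comparison. B12 in non-diabetic kidneys ran from -0.63 (SE 0.51) for Zbtb16 to 0.39 (SE 0.33) for Sgk1. The intervals set what could have been missed, which was -0.30 to 1.84 for Zbtb16 and -0.24 to 0.32 for Klf9 in the diabetic kidneys.

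Per kilobase of transcript, the scale on which genes can be compared, Mt1 was the most abundant of the 8, at 5579 ± 1236 normalized counts per kilobase over the 16 mice (SD). Klf9 followed at 2924 ± 402, then Sgk1 at 2490 ± 1002, Fkbp5 at 2171 ± 437, Nr3c1 at 1822 ± 165, Tsc22d3 at 1708 ± 407 and Mt2 at 1697 ± 420. Zbtb16 was lowest at 295 ± 161. The means of Mt1 and Zbtb16 lay apart from their neighbours by more than the SD between mice, while neighbours from Klf9 to Mt2 in this order differed by less than the larger of their SDs. These levels rest on the authors' split of counts among transcripts.

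That split was clear for some of the genes. Fkbp5-201 took 97.6% of the transcript counts of its gene, Klf9-201 99.4%, Mt2-201 99.8% and Zbtb16-201 90.6% on average. For Tsc22d3, the 3-exon Tsc22d3-201 took 77.6% (69.7% to 84.8% over the libraries) and the longer Tsc22d3-203 11.9%. Sgk1-201 took 55.7% and Sgk1-202 38.5%, but in the library ND_B12 3 the shares were 89.6% and 7.9%. Nr3c1-203 and Nr3c1-204 took 56.8% and 36.4% on average. Their split varied widely between mice, from 20.0% and 76.3% in ND_B12 1 to 90.4% and 3.3% in D_C 3.

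The unspliced single-exon model Mt1-202 took 63.2% to 77.4% of the Mt1 counts in 15 libraries, and the spliced Mt1-201 20.8% to 33.9%. In ND_B12 1 the shares were turned round, with 12.3% and 87.6%. That library also had the lowest gene counts of Mt1 and Mt2. An estimate that jumps between similar models in single libraries cannot be read as a change of isoform here, and it bears on the per-kilobase value of Mt1, whose models are 1085 and 549 bases long.

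Mice of 1 group differed more in these genes than in others of like level. The SD between mice of a group was 0.86 on the log2 scale for Zbtb16, more than in 99.8% of 5117 genes of similar level. For Sgk1 it was 0.53, more than in 99.4% of such genes, and for Mt2 0.38, Tsc22d3 0.34, Mt1 0.31 and Fkbp5 0.28 it exceeded that of 96.0% to 97.3%. Klf9, at 0.20, stood at 87.6%. The receptor Nr3c1, at 0.10, stood in the middle, at 48.7%. The median over all genes tested was 0.25, which includes many genes of low count.

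With 16 libraries in 4 groups, a gene with no group difference has 80% of its variance within groups on average, and the median over all genes tested was 72.7%. The share within groups was 88.1% for Klf9, 84.2% for Sgk1, 83.3% for Mt2, 80.4% for Fkbp5, 75.9% for Tsc22d3, 69.8% for Zbtb16 and 59.5% for Mt1. For Nr3c1 it was 38.9%, the lowest of the 8. No single mouse led all genes, but ND_C 3 ranked among the highest 3 of the 16 for 3 of the 8 genes, as did ND_B12 4, D_C 2 and D_C 4.

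**Figure D3:**
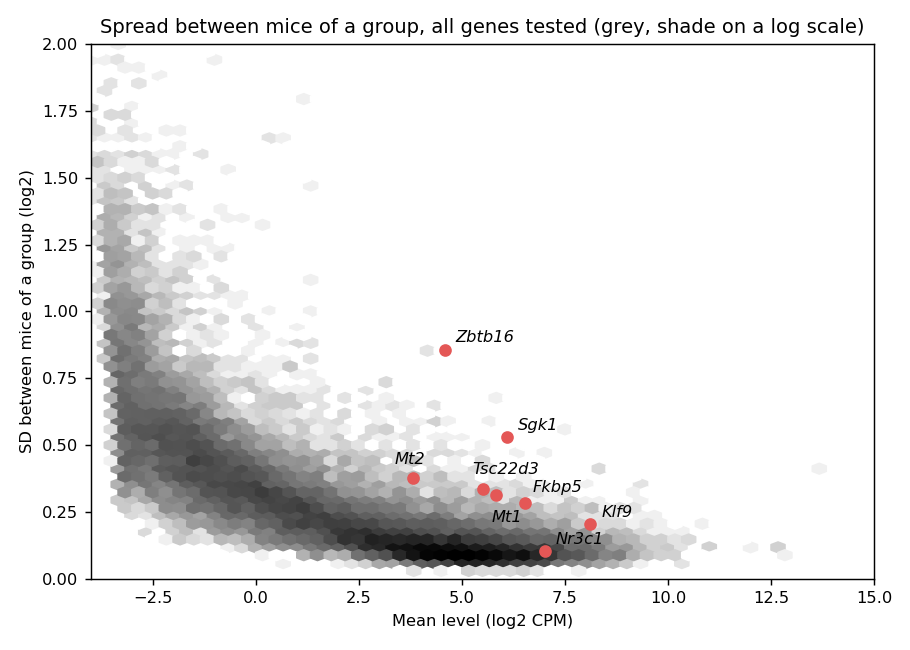
SD between mice of a group (log2, pooled over the 4 groups) against the mean level (log2 CPM). Grey shading counts all 25408 genes tested and red points are the 8 genes; Zbtb16 (0.86) and Sgk1 (0.53) lie far above genes of their level and Nr3c1 (0.10) among them.

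Across the 16 mice, only the metallothionein pair rose and fell together past the threshold among 28 pairs of the 8 genes. Mt1 and Mt2 correlated with r = 0.83 (permutation p 0.00013, adjusted 0.00364) and rho = 0.81 (permutation p 0.00020, adjusted 0.0056). Leaving out the 2 mice farthest from the median of Mt1 left r = 0.73 with a permutation p of 0.0031. With group means removed the residuals gave r = 0.85, so the relation was as strong within groups.

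Fkbp5 and Zbtb16, known as targets of the receptor in many tissues, gave r = 0.67 and rho = 0.65, with permutation p adjusted to 0.0773 and 0.0526. Without the 2 mice farthest from the Fkbp5 median r was 0.52 (permutation p 0.0585), so that relation leans on ND_C 3 and D_B12 2. Sgk1 with Tsc22d3 gave r = 0.56 (adjusted permutation p 0.107) and rho = 0.66 (0.0526). The receptor ran against Zbtb16 with r = -0.60 (adjusted permutation p 0.107) and against Fkbp5 with r = -0.57 (0.107). With group means removed, these became weaker, at r = -0.38 for Nr3c1 with Zbtb16 and -0.42 with Fkbp5. The residuals gave r = 0.59 for Fkbp5 with Zbtb16 and 0.71 for Sgk1 with Tsc22d3. When the 2 farthest mice were left out of each pair, 4 of the 28 pairs passed, Mt1 with Mt2 and Fkbp5 with Klf9, Mt1 and Mt2. The mice were chosen by 1 gene of each pair, so all these Fkbp5 pairs left out the same mice, ND_C 3 and D_B12 2. They are thus not separate results. Their r rose from 0.55 to 0.70 for Klf9, from 0.49 to 0.75 for Mt1 and from 0.30 to 0.71 for Mt2.

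**Figure D4:**
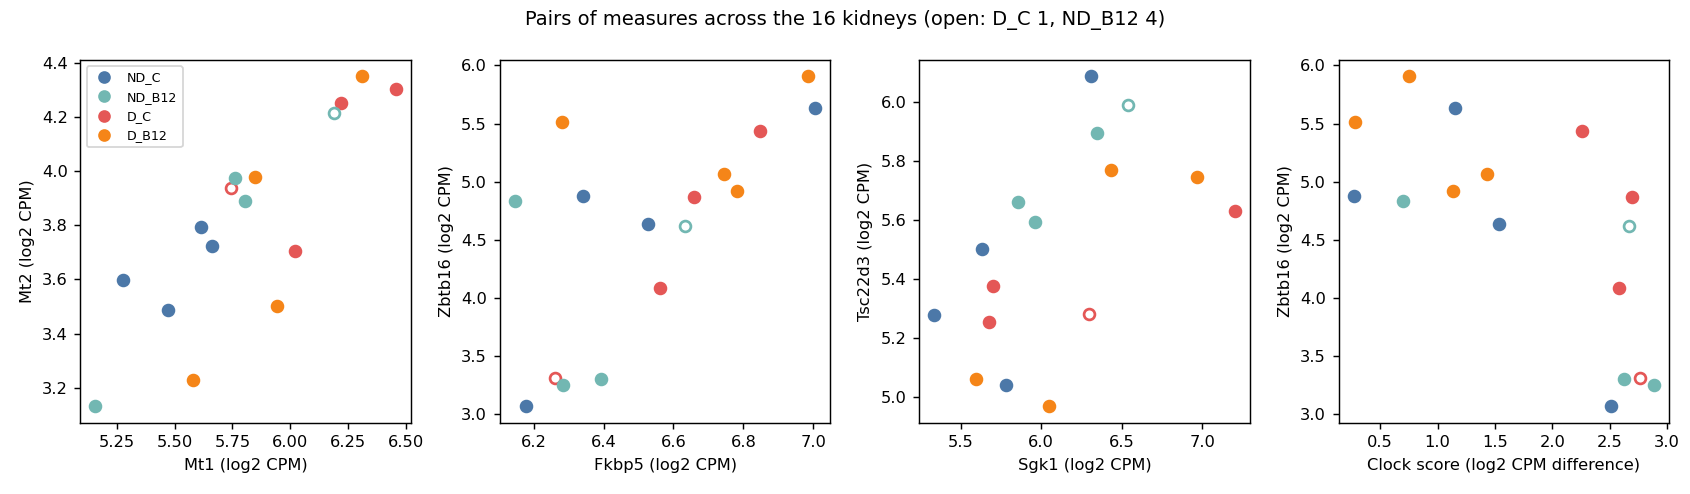
Mt1 with Mt2, Fkbp5 with Zbtb16, Sgk1 with Tsc22d3 and the clock score with Zbtb16 in the 16 kidneys, log2 CPM on the axes, coloured by labelled group; open points are D_C 1 and ND_B12 4. Mt1 and Mt2 rise together (r = 0.83), and in the panel on the right the clock score (mean of 12 repressors and outputs minus mean of 4 activators) leaves 2 separate sets of mice.

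Glucocorticoids follow the daily clock, and Klf9, Zbtb16 and other targets are known to cycle, so the state of the clock genes was set beside the 8 genes. The clock score, the mean log2 CPM of 12 clock repressors and outputs minus that of 4 activators, was 2.26 to 2.77 in D_C and 0.281 to 1.43 in D_B12. ND_C mice had 0.268 to 2.51 and ND_B12 mice 0.698 to 2.89. It split the mice into 8 with scores up to 1.54 and 8 with scores from 2.26, so no correlation over all mice is given. Zbtb16 lay between 1984 and 4782 (median 2543) in the 8 mice with low scores and between 663 and 3478 (median 1067) in the 8 with high scores. For Mt2 the medians were 934 and 1234, and for Fkbp5 7949 and 7113. Those of Nr3c1 were 9446 and 10854, of Mt1 3867 and 4814, and of Sgk1 5115 and 5438. Tsc22d3 had 3736 and 3642, and Klf9 22237 and 21799. All 4 D_B12 mice are in the low set and all 4 D_C mice in the high set, so score and group cannot be told apart there.

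Within each set, 16 relations of the score with the 8 genes were tested, and none passed. Klf9 in the low set had the smallest exact permutation p, 0.0443, with r = 0.74, adjusted to 0.567, and rho = 0.74. Zbtb16 gave r = -0.26 in the low set and -0.54 in the high set, with exact permutation p of 0.520 and 0.165.

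Immediate early genes, which answer within minutes to handling and tissue collection, were also set beside them. Their mean log2 CPM was 2.50 in D_C 2, the mouse with the highest Sgk1, and 1.67 to 2.41 in the other 15. Mt2 had the closest relation with it, r = 0.55 and rho = 0.56 (permutation p adjusted over 16 relations 0.140 and 0.216), which became 0.38 (permutation p 0.184) without D_C 2 and ND_B12 4. For Sgk1 r was 0.31 and became -0.29 without those mice.

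Among 35 other textbook glucocorticoid targets, edgeR called 0 higher and 2 lower for averaged diabetes, Fam107a and Errfi1, beside 0.862% and 2.16% of all genes. The median of the 35 was 0.062, beside 0.0072 over all genes, and 22 of the 35 were above 0. For B12 in diabetic kidneys 0 of the 35 passed, 11 had an unadjusted p under 0.05 beside 13.6% of all genes, and the median was -0.14 beside -0.00044 over all genes. In untreated kidneys 0 of the 35 passed, with 8 at an unadjusted p under 0.05 beside 18.6% of all genes, and the median was 0.15 beside -0.0034.

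Fam107a, an actin-binding protein gene induced by glucocorticoids and stress, fell by 0.58 on the log2 scale (SE 0.11, edgeR adjusted p 0.0182). ND_C mice had 5586, 5318, 5388 and 5895 normalized counts and ND_B12 mice 6225, 6282, 5442 and 3827. D_C mice had 6660, 4281, 3854 and 4013, and D_B12 mice 2635, 2912, 2807 and 3224. Apart from D_C 1 and ND_B12 4, every diabetic mouse lay below every non-diabetic one, and without those libraries the value was -0.75 (SE 0.052, edgeR adjusted p 6.99e-06). Fam107a was part of the profile that picked those libraries, so this value is not a separate check. In B12-treated kidneys the fall was -0.91 (SE 0.16, edgeR adjusted p 0.0290). That second call was lost, at adjusted p of 0.0517 to 0.109, without any of ND_B12 1, ND_B12 2, ND_B12 3 or the 4 D_B12 libraries, and was -1.04 without D_C 1 and ND_B12 4.

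Errfi1, an inhibitor of the EGF receptor that glucocorticoids induce, fell by 0.46 on the log2 scale (SE 0.098, edgeR adjusted p 0.0247). Untreated mice had 37898 to 55097 normalized counts without diabetes and 25057 to 39911 with it, and B12-treated mice 44073 to 54933 and 33757 to 41076. The call was lost at an adjusted p of 0.0503 without ND_C 3, 0.0556 without ND_B12 3, 0.0525 without D_C 2 and 0.0567 without D_B12 3. Without D_C 1 and ND_B12 4 the value was -0.50 (edgeR adjusted p 0.00175), and Errfi1 too was part of the profile that picked them. With the date covariate neither gene was called, at -0.33 for Fam107a (adjusted p 0.652) and -0.19 for Errfi1 (0.775).

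**Figure D5:**
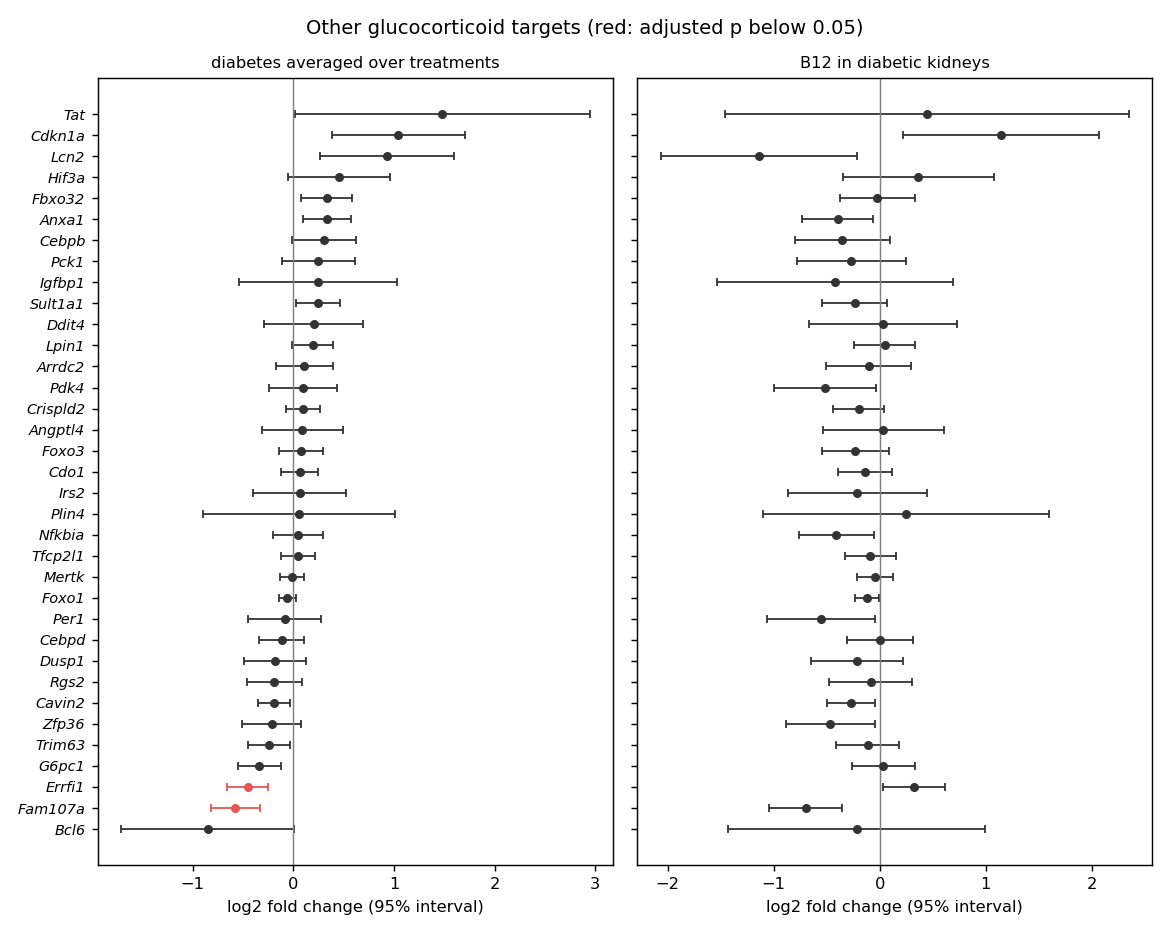
Log2 fold changes with 95% intervals of 35 other glucocorticoid targets for diabetes averaged over treatments (left) and B12 in diabetic kidneys (right), with genes ordered by the left panel. Red marks an edgeR adjusted p under 0.05, which only Errfi1 (-0.46) and Fam107a (-0.58) reached, on the left.

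Of the genes that handle the receptor and its ligand, a list that includes Nr3c1 and Fkbp5, 19 of 20 were tested. By edgeR 0 passed in any comparison, with 4 at an unadjusted p under 0.05 for averaged diabetes beside 19.4% of all genes. Their median for averaged diabetes was -0.096, and 2 of the 19 were above 0. The smallest p in the list belonged to Fkbp4, the immunophilin that carries the receptor to the nucleus, at -0.17 (SE 0.052, edgeR adjusted p 0.0885), followed by Nr3c1 itself.

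The metallothionein and metal response list includes Mt1 and Mt2. Of its 16 genes 14 were tested, with 0 higher and 1 lower for averaged diabetes, beside 0.862% and 2.16% of all genes. The gene called was Slc39a8, a zinc importer, at -0.28 (SE 0.074, edgeR adjusted p 0.0488). D_B12 mice had 3213 to 3394 normalized counts of it against 3678 to 4970 in ND_B12. Groups without overlap were found for 11.7% of all genes in B12-treated kidneys. These ranges cover only the B12-treated part of the averaged effect, and the untreated part is not given here. The call was lost when any of 13 single libraries was left out, with adjusted p between 0.0588 and 0.0991, all but ND_B12 4, D_C 1 and D_C 4.

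Of the 15 genes of the list of Sgk1 targets and sodium transport, Sgk1 itself included, 0 passed. For averaged diabetes 3 had an unadjusted p under 0.05, beside 19.4% of all genes, and the median was -0.019. The smallest p belonged to Ndrg2, a known substrate of Sgk1, at -0.31 (SE 0.13, edgeR adjusted p 0.181), and to Slc12a3, the sodium chloride cotransporter of the distal tubule, at -0.15 (SE 0.066, adjusted p 0.213). In a list of 13 genes, made up of Klf9, Zbtb16, Tsc22d3 and relatives of them, 0 passed. For averaged diabetes 1 of the 13 had an unadjusted edgeR p under 0.05, beside the same 19.4% of all genes. Tsc22d4 stood at 0.16 (SE 0.067, edgeR adjusted p 0.191) and Klf5 at 0.41 (SE 0.21, adjusted p 0.304).

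The clock repressors and outputs held 1 call among 12 genes, Cry2, a repressor of the clock that also binds the glucocorticoid receptor. It rose by 0.89 (SE 0.22, edgeR adjusted p 0.04996) for diabetes in untreated kidneys, with 2385 to 2761 normalized counts in D_C against 1074 to 1755 in ND_C. Of all genes, 0.937% were called higher and 9.44% had groups without overlap in that comparison. Of the 4 clock activators 0 passed in any comparison by edgeR, and Clock stood at 0.13 (SE 0.085, adjusted p 0.448) and Bmal1 at -0.25 (SE 0.32, adjusted p 0.730) for averaged diabetes. For B12 in diabetic kidneys 4 of the 4 activators had an unadjusted p under 0.05 beside 13.6% of all genes, with a median of 1.26, and for the interaction 4 of the 4 beside 16.1%, with a median of 1.83. Bmal1 stood at 1.59 (SE 0.46, edgeR adjusted p 0.151) and Clock at 0.39 (SE 0.12, adjusted p 0.173) for B12 in diabetic kidneys. Of the 12 repressors and outputs, 10 had an unadjusted p under 0.05 for B12 in diabetic kidneys, with a median of -0.64, and 11 for the interaction, with a median of -1.17. Cry2 was at -0.74 (SE 0.22, edgeR adjusted p 0.153) for B12 in diabetic kidneys. For B12 in non-diabetic kidneys 0 of the 4 activators and 4 of the 12 others had an unadjusted p under 0.05, beside 7.62% of all genes. Their medians were -0.54 and 0.42. The signs of these B12 values rest on the labels of D_C and D_B12, which the exchange of printed means puts in doubt. Among 10 immediate early genes, 1 was called for diabetes in untreated kidneys, again beside 0.937% of all genes called higher. That was Ier2, which rose by 0.62 (SE 0.14, edgeR adjusted p 0.0443), at 558 to 764 in D_C against 394 to 465 in ND_C. Both calls were lost when any of 10 single libraries was left out, with adjusted p from 0.0582 to 0.135 for Cry2 and from 0.0509 to 0.133 for Ier2. Those libraries were ND_C 1, 2 and 3, ND_B12 2, D_C 2, 3 and 4, and D_B12 2 and 4 for both, with ND_B12 3 for Cry2 and ND_C 4 for Ier2.

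Genes with patterns most like those of the 8 were sought among 16071 genes, by Pearson's r of log2 CPM over the 16 libraries, as a description. Nr3c1 was most like Thrb (0.92), which encodes a thyroid hormone receptor, Gm12454 (0.91) and Cndp1 (0.90). Fkbp5 was most like Slc26a11 (0.81), Xrcc1 (0.80) and Map3k6 (0.79), and Tsc22d3 most like Gm7324 (0.80), Tpd52l2 (0.80) and Gja1 (0.79). Zbtb16 was most like Rad54l2 (0.93), Thumpd3 (0.92) and Zc3h11a (0.88). None of these is another of the 8 genes.

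Sgk1 was most like Nipa1 (0.84), Cyth1 (0.83) and Gm11263 (0.82), and Klf9 most like Zc3h7b (0.93), Ctsa (0.89) and Lgr4 (0.89). Mt1 was most like Xdh (0.92), the gene of xanthine dehydrogenase, Pip5k1a (0.91) and Pdk1 (0.91). Mt2 was most like Gm45774 (0.91), Xrn2 (0.86) and Spata7 (0.86). Gm45774 overlaps Mt2 on the opposite strand, and as the strand setting of the counting step is not given in the sources used here, their reads cannot be told apart. The other genes of the 8 also overlap predicted genes, apart from Mt1, so their counts may include reads of these.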

How the data were processed

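STAR alignment of paired 50-base reads to GRCm39 and StringTie with prepDE gave 1 estimated count (expected count) per gene and per transcript, which the authors deposited as whole numbers, so nothing was rounded here. The submitters' notes name bcl2fastq 2.20.0. STAR marked strand by intron motif, which leaves unspliced reads without one, and the strand setting of StringTie is not given in the sources used here. Columns were matched to libraries by the number that ends each library's name. To normalize, each count was divided by its library's size factor (median of ratios), and log2 CPM used a prior count of 2.

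Differences were tested in edgeR 4.0.16 under R 4.3.3 (glmQLFit, glmQLFTest, TMM), with a mean for each of the 4 labelled groups, 12 residual degrees of freedom, genes of at least 100 counts in all, and Benjamini-Hochberg adjustment at 0.05 over 25408 genes. Exact permutation tests compared single genes, 4 mice against 4, and correlations used 100000 permutations or, with 8 mice or fewer, all of them. All tests were two-sided. The labels call the libraries biological replicates. The common biological coefficient of variation was 0.201, so the spread between mice limits the precision more than counting does. Correlations of log2 CPM between libraries lay between 0.972 and 0.985 over 120 pairs.

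The 8 genes and the gene lists were chosen with earlier results of these data known. Named list genes are those with an adjusted p under 0.05 in any comparison (at most 5 per list), or else the 2 with the smallest p for averaged diabetes, and for each of the 8 genes the 3 with the highest r among genes of at least 1 CPM. Alternatives were DESeq2 1.42.0, upper-quartile scaling, other count filters, the date as a covariate, a block for the replicate number, fits of only the groups compared, fits without D_C 1 and ND_B12 4, and fits without each library. The alternatives of the called list genes, and the relations with the clock and immediate early scores, were added after seeing the data. Positions and transcripts come from GENCODE vM39 and motifs from the GRCm39 sequence. The fits were tested on simulated data. Python 3.11.15 with pandas 2.3.3, numpy 2.4.6, scipy 1.17.1 and matplotlib 3.10.9 was used for permutations, tables and plots.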

Additional observations from a re-analysis of the deposited data

How the results depend on the processing

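The log2 fold changes of the 8 genes and of the called list genes were counted, together with the correlation of Mt1 with Mt2. Under the alternatives other than leaving out 1 library, 367 values kept direction and side of the threshold, 8 gained a call, 15 lost one and 26 changed sign. When 1 library was left out, 783 log2 fold changes kept both, 6 gained a call, 44 lost one and 31 changed sign. No sign change was of a called value. The cause of these changes was not tested.

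All genes called by DESeq2 numbered 1837 for diabetes averaged over treatments, 1637 in untreated and 1189 in B12-treated kidneys, 6 for B12 in non-diabetic and 670 in diabetic kidneys, and 943 for the interaction, against 767, 423, 209, 0, 0 and 0 in edgeR. DESeq2 called 1 of the 8 genes in each diabetes comparison. Upper-quartile normalization left 18 calls in B12-treated kidneys and turned Nr3c1 in untreated kidneys to -0.010, Mt2 for diabetes in B12-treated kidneys to 0.0096 and Sgk1 for B12 in diabetic kidneys to 0.0032. Without a filter beyond 1 count, 427, 63 and 35 genes were called for the 3 diabetes comparisons. Fitting only the groups compared called 242 genes in untreated kidneys, 1 for B12 in diabetic kidneys, and 1 of the 8 genes for diabetes in B12-treated kidneys. It could not be run for the averaged effect and the interaction, which use all groups.

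Without D_C 1 and ND_B12 4, calls were 2531, 2127 and 695 for the diabetes comparisons, 216 for B12 in diabetic kidneys and 87 for the interaction, and 2, 1 and 1 of the 8 genes were called for the diabetes comparisons. Signs turned for Nr3c1 (-0.048) and Zbtb16 (0.089) in untreated kidneys, Klf9 (0.10) and Mt2 (0.12) in B12-treated kidneys, and Klf9 for B12 in diabetic kidneys (-0.042).

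With the date as a covariate, 0, 2 and 29 genes were called for the diabetes comparisons, 204 for B12 in diabetic kidneys and 753 for the interaction. Signs turned for averaged diabetes in Fkbp5 (-0.15), Tsc22d3 (0.36), Klf9 (-0.33), Mt1 (-0.14) and Mt2 (-0.43), in untreated kidneys in Fkbp5 (-0.19), Tsc22d3 (0.29), Zbtb16 (0.072) and Klf9 (-0.15), and in B12-treated kidneys in Fkbp5 (-0.11), Tsc22d3 (0.42) and Mt1 (-0.53). For B12 in diabetic kidneys they turned in Fkbp5 (-0.18), Sgk1 (1.20) and Klf9 (-0.25), and for the interaction in Tsc22d3 (0.12) and Sgk1 (0.46).

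Groups share the replicate numbers 1 to 4, but same-numbered mice did not deviate together, with correlations from -0.183 to 0.168 over 24 pairs, so they share only a number. With the replicate number as a block, 478, 269 and 25 genes were called for the diabetes comparisons and 147 for the interaction. The block turned Sgk1 for B12 in diabetic kidneys to 0.015 and called 0 of the 8 genes.

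Leaving out 1 library, all genes called ranged from 235 to 1700 for averaged diabetes, 0 to 1552 in untreated and 0 to 441 in B12-treated kidneys, 0 to 2 and 0 to 69 for B12 in non-diabetic and diabetic kidneys, and 0 to 266 for the interaction. Of the 8 genes, 0 to 1 were called in each diabetes comparison and 0 in the others. Log2 fold changes crossed 0 for averaged diabetes in Klf9 (-0.024 to 0.095). In untreated kidneys they crossed in Nr3c1 (-0.057 to 0.079), Fkbp5 (-0.055 to 0.24), Tsc22d3 (-0.27 to 0.11) and Zbtb16 (-0.60 to 0.25), and in B12-treated kidneys in Sgk1 (-0.12 to 0.33), Klf9 (-0.14 to 0.10) and Mt2 (-0.25 to 0.14). B12 in non-diabetic kidneys crossed 0 in Fkbp5 (-0.28 to 0.020), and B12 in diabetic kidneys in Tsc22d3 (-0.091 to 0.17), Sgk1 (-0.28 to 0.43) and Klf9 (-0.029 to 0.11). The interaction did so in Sgk1 (-0.67 to 0.047) and Klf9 (-0.23 to 0.011). Of the 28 correlations, 4 passed in place of 1 without the 2 farthest mice.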
